A study of Mus musculus with 8 samples.

Results

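Regulatory T cells (Tregs) from injured limb muscle were compared with Tregs from the spleen in mice older than 6 months, as muscle minus spleen. The comparison rests on 4 of the 8 libraries of the series, 2 of aged muscle and 2 of aged spleen, chosen by their titles, tissue and age labels and not by any measured value. All came from male C57BL/6 mice, with no other genotype or strain named. Cardiotoxin, a toxin of snake venom that kills muscle fibres, had been injected at 0.9 µg into each tibialis anterior, quadriceps and gastrocnemius, and tissue was taken at day 4. The spleens thus came from injured mice too, and there is no uninjured muscle in the comparison. Each library was made from 1500 twice-sorted Tregs lysed in Trizol. The sources used here do not give the markers of the sort, or say whether a muscle and a spleen library came from the same animals or from pools. The other 4 libraries, from mice 2 months old treated in the same way, served to estimate the spread of each gene and to show where the tissue difference differed with age.

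Tregs are CD4 T cells that restrain other immune cells, and their programme is held by the transcription factor Foxp3. Most Tregs of the spleen recirculate through lymphoid organs, whereas those of non-lymphoid tissues carry a further set of genes, including receptors for chemokines and for the alarm cytokine IL-33. After injury Tregs gather in muscle, where they are known for releasing amphiregulin, a growth factor that acts on muscle progenitor cells.

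The aged spleen libraries held 4008622 and 2876160 read counts and the aged muscle libraries 2616638 and 2148765. A count of 0 allows up to 3 counts, which is 0.736 to 1.27 CPM (the read count over the TMM-adjusted library size) in a single library. That limit covers counting error only, since no molecular identifiers are described. Across genes the libraries of a group correlated with Spearman's rho of 0.967 in aged spleen and 0.92 in aged muscle. Foxp3 was read in all 4 libraries, at 15.7 and 25.8 CPM in spleen and 40.2 and 23.7 CPM in muscle. Each of 10 T cell markers was read, with sums of 5820 and 5840 CPM in spleen and 4930 and 3860 CPM in muscle, and 6 of them were lower in muscle and 1 higher. Without aged spleen replicate 1 there were 2 lower and 0 higher, and without aged spleen replicate 2 there were 3 lower and 0 higher. Of the marker lists of other cells, the summed levels in spleen and then muscle were 535 and 570 against 353 and 395 CPM for 24 myeloid genes. They were 203 and 192 against 227 and 256 CPM for 18 muscle fibre genes, most of it Ttn and Neb, with Tnni2 at 0 in all 4. They were 723 and 710 against 368 and 374 CPM for 12 B and plasma cell genes, most of it Ighm. For 10 CD8 and NK cell genes they were 52.7 and 45.8 against 92.0 and 72.3 CPM. Fibroblast genes, 13 in number, summed to 25.3 and 22.7 against 37.6 and 167 CPM, so that aged muscle replicate 2 stood apart, with Dcn at 30.4 CPM against 0.372 CPM in replicate 1. The muscle creatine kinase gene Ckm was at 0.736 and 0 against 0 and 3.38 CPM, and 7 myogenic progenitor genes summed to 13.7 and 13.2 against 36.9 and 52.4 CPM with Myod1 and Myog at 0 in all 4. For 9 endothelial genes the sums were 156 and 191 against 205 and 184 CPM, with Cldn5, Egfl7 and Esam at 0 in all 4. Red cell and platelet genes, 10 in number, summed to 142 and 180 CPM in spleen and 13.8 and 25.4 CPM in muscle. The part of these other cells in the results was not tested.

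Of 14772 genes tested, 1413 were higher in aged muscle than in aged spleen (9.57%) and 1370 were lower (9.27%), by edgeR's quasi-likelihood test at a Benjamini-Hochberg adjusted p under 0.05. The higher genes moved further: 1170 of them differed at least 2-fold and 233 at least 8-fold, against 726 and 66 of the lower genes. At an unadjusted p under 0.05 there were 2661 higher and 2433 lower genes. The median log2 fold change over all genes tested was 0.03. The counts depended on single libraries: 426 and 444 genes passed without aged spleen replicate 1, 441 and 488 without aged spleen replicate 2, 714 and 688 without aged muscle replicate 2, and 1309 and 1224 without aged muscle replicate 1. Most of the 125 named genes that passed kept their call under the 13 alternatives, and 0 reversed. They were named mostly for large changes or small p in these same data, so their kept calls do not stand for all calls.

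**Figure D1:**
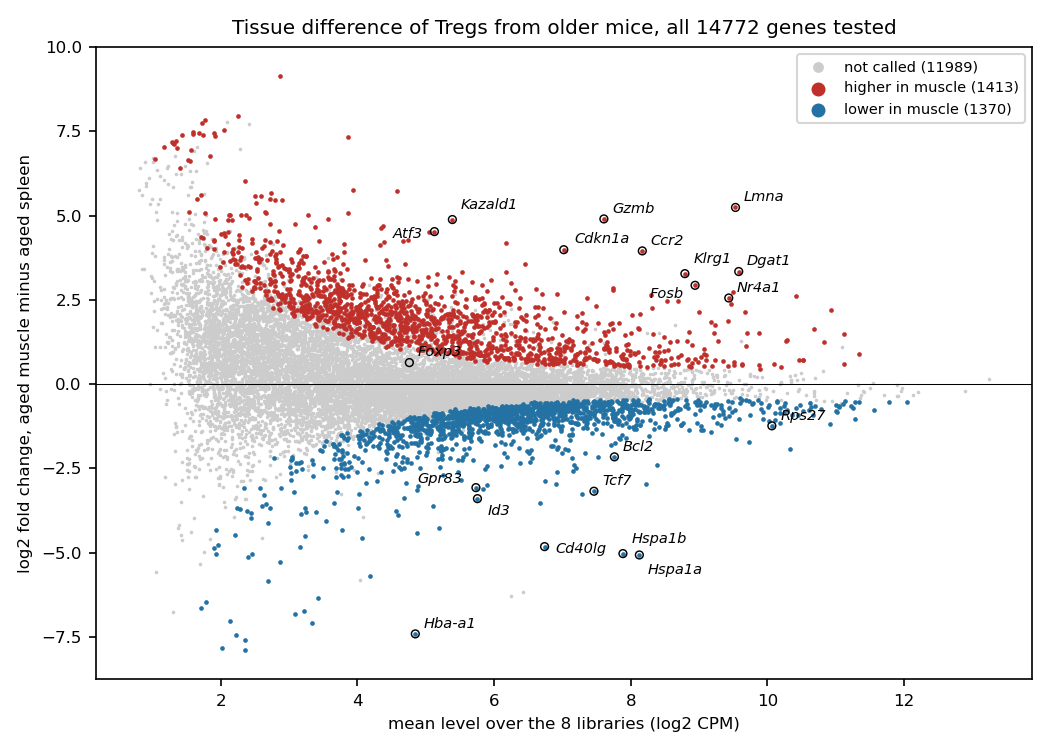
Log2 fold change of aged muscle minus aged spleen Tregs (vertical axis) against the mean level over the 8 libraries in log2 CPM (horizontal axis), 1 point per gene tested. The 1413 genes higher in muscle are red, the 1370 lower ones blue, the others grey, and 20 genes of the text are circled.

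Lmna, which encodes the nuclear lamins A and C, showed the largest increase among the genes whose libraries did not overlap and whose mean log2 CPM was 4 or more. It lies on chromosome 3 (88480147 to 88509956, GRCm38) and was read at 37.0 and 21.4 CPM in spleen and at 1270 and 979 CPM in muscle, a log2 fold change of 5.24 ± 0.26 (SE; adjusted p = 6.82e-08). Next came Gzmb (chromosome 14, 56258838 to 56262260), the gene of the cytotoxic protease granzyme B, at 10.3 and 9.16 CPM in spleen against 312 and 274 CPM in muscle (4.90 ± 0.43). Cdkn1a (chromosome 17, 29090976 to 29100727), the p21 inhibitor of the cell cycle, went from 15.7 and 13.9 CPM to 275 and 197 CPM (3.99 ± 0.23), and the stress-induced transcription factor gene Atf3 from 3.68 and 2.37 CPM to 71.1 and 73.2 CPM (4.52 ± 0.47). That both muscle libraries lay above both spleen libraries in each of these genes was a condition of their choice. The others of the 12 largest increases were Kazald1 (4.88), the stem cell factor receptor gene Kit (4.63), Flrt3 (4.52), Anxa1 (4.28), Cxcr6 (4.25), Vwc2l (4.23), Ccr3 (4.18) and the semaphorin receptor gene Plxna2 (4.12), all on the log2 scale.

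The largest decreases were in red cell and heat shock genes. The alpha globin gene Hba-a1 was at 67.2 and 84.1 CPM in spleen and at 1 count in each muscle library (0.372 and 0.423 CPM), a spleen to muscle ratio of 188 (95% exact interval 51.7 to 1550, counting error only). Its near-identical copy Hba-a2 was at 32.9 and 54.6 CPM against 1.12 and 0.423 CPM, and reads of the pair may be split or dropped by the counting. The globin calls ended when a muscle library was left out (adjusted p up to 0.108 for Hba-a1 and 0.197 for Hba-a2), and that of Hba-a2 also without either spleen library. Cd40lg, the ligand through which helper T cells activate B cells (chromosome X, 57212143 to 57224042), was at 113 and 180 CPM in spleen and 7.45 and 2.54 CPM in muscle (-4.83 ± 0.42, adjusted p = 2.16e-05). Below it came the copine gene Cpne7 (-4.57, a call that ended without either aged spleen library, with adjusted p up to 0.0564), Ccdc63 (-4.26), Ddx43 (-3.88), the Notch pathway ligase gene Dtx4 (-3.76), Rnu12 (-3.68), which encodes the U12 small nuclear RNA, and Prrt1 (-3.63). The remaining decreases among the 12 largest, Hspa1a, Hspa1b and Hspb1, are described with the heat shock genes.

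**Figure D2:**
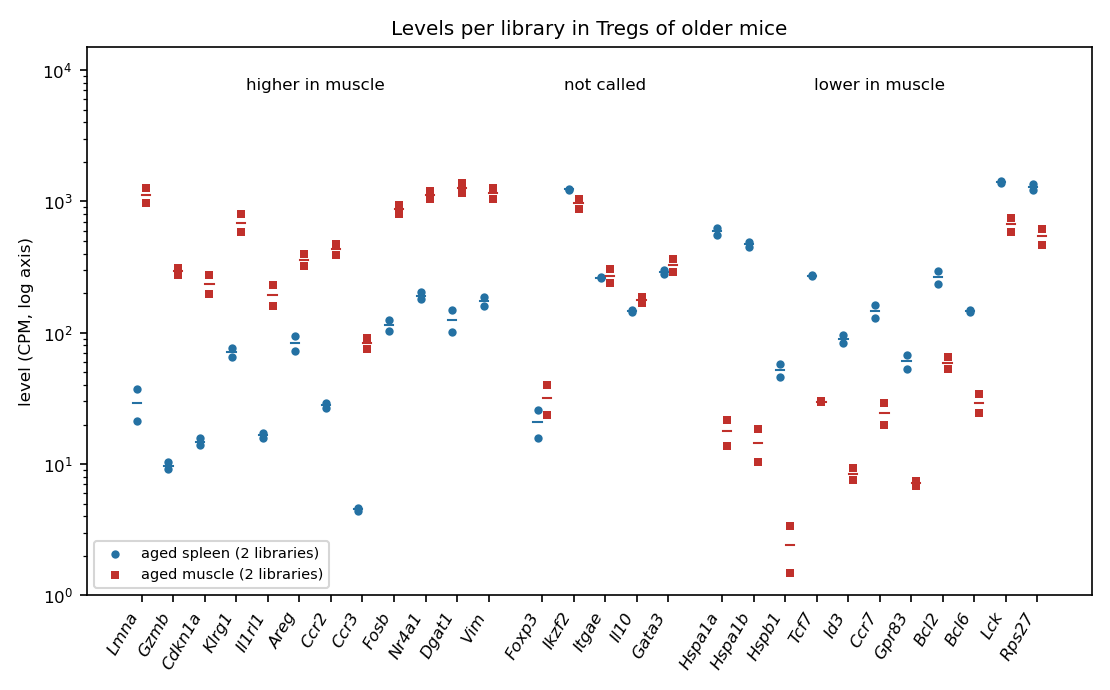
Level of 28 genes in CPM on a log axis, in the 2 aged spleen libraries (blue circles) and the 2 aged muscle libraries (red squares), with a line at each group's mean. The groups are apart for the genes at left and right, while Foxp3, Itgae and Gata3 overlap between the tissues.

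Genes that define Tregs did not move as a group. Of 17 identity genes tested 5 were higher and 6 lower in muscle, with a median log2 fold change of -0.30. Without either aged spleen library fewer were called in both directions. Foxp3 itself did not pass (0.64 ± 0.40, adjusted p = 0.277), its libraries overlapping between the tissues. Ctla4, the inhibitory receptor by which Tregs compete for costimulatory ligands, was at 564 and 595 CPM in spleen and 1480 and 1330 CPM in muscle (1.28 ± 0.14, adjusted p = 2.01e-05). Il2ra, the high-affinity chain of the IL-2 receptor, was at 202 and 219 CPM against 315 and 278 CPM (0.50 ± 0.15, adjusted p = 0.0307). Its call ended without either aged spleen library, aged muscle replicate 1 or either young spleen library, and with all genes that had a count. The STAT5 feedback gene Socs2 was higher by 2.02 ± 0.17 and Tnfrsf18, which encodes the costimulator GITR, by 0.85 ± 0.15. Lower were the orphan receptor gene Gpr83, at 52.7 and 68.2 CPM against 7.45 and 6.77 CPM (-3.07 ± 0.34), and Nt5e, the ecto-enzyme CD73 that makes adenosine (-1.33 ± 0.16). The Helios gene Ikzf2, at 1230 and 1250 CPM against 1050 and 880 CPM, had a log2 fold change of -0.36 and passed only without aged muscle replicate 1. Itgae, the integrin chain CD103, was level at 264 and 262 CPM in spleen and 305 and 240 CPM in muscle (0.05 ± 0.16, adjusted p = 0.835).

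The genes known from Tregs of non-lymphoid tissue were more often higher, 9 of 21 tested, with 3 lower and a median of 0.53. Without either aged spleen library or aged muscle replicate 2 calls were lost in both directions, among them all of the lower ones. Higher calls were lost without aged muscle replicate 1 as well. Il1rl1, the receptor for IL-33 (chromosome 1, 40429570 to 40465415), was at 17.2 and 15.9 CPM in spleen and 231 and 159 CPM in muscle (3.55 ± 0.25, adjusted p = 3.13e-07). Areg, the amphiregulin gene (chromosome 5, 91139599 to 91148432), rose from 94.4 and 72.9 CPM to 398 and 320 CPM (2.10 ± 0.23, adjusted p = 3.89e-05). Klrg1, a receptor of late effector T cells and tissue Tregs, went from 76.2 and 65.8 CPM to 799 and 580 CPM (3.28 ± 0.19). For these receptors and this growth factor the muscle libraries were 4.28-fold (Areg) to 11.7-fold (Il1rl1) above spleen. The transcription factor genes Irf4 (1.81 ± 0.17) and Rora (1.46 ± 0.17) were also higher, while Batf (-0.75 ± 0.17) and Maf (-0.65 ± 0.16) were lower, calls that ended without either aged spleen library or aged muscle replicate 2. The type 2 factor gene Gata3 (0.16 ± 0.16), the fat Treg factor gene Pparg (1.21 ± 0.58) and Il10 (0.28 ± 0.17), which encodes the suppressive cytokine, did not pass.

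Genes of naive and recirculating T cells were lower in 12 of 22 and higher in 3, with a median of -0.59. Without either aged spleen library or aged muscle replicate 1 most of the higher calls were lost, and some of the lower ones. Lower calls were also lost without aged muscle replicate 2. Tcf7, the transcription factor TCF-1 of naive and memory T cells (chromosome 11, 52252371 to 52283014), was at 269 and 274 CPM in spleen and 30.2 and 29.6 CPM in muscle (-3.18 ± 0.19, adjusted p = 7.89e-08). Id3, an inhibitor of E-protein transcription factors, was at 96.4 and 83.8 CPM against 9.31 and 7.61 CPM (-3.40 ± 0.28). Ccr7, the receptor that guides T cells into lymph nodes, was at 164 and 130 CPM against 29.1 and 19.9 CPM (-2.58 ± 0.23). Also lower were Klf3 (-1.50), Bach2 (-1.51) and Lef1 (-1.17), all regulators of T cell quiescence or naive state. The list did not move as one: Satb1, a chromatin organiser of T cells, was at 104 and 82.4 CPM in spleen and 114 and 107 CPM in muscle (0.24, adjusted p = 0.312), and Klf2 (0.01) did not pass either.

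Receptors for inflammatory chemokines were higher almost throughout, 10 of 13 tested with 0 lower and a median of 2.25, the highest median of the pathway lists. The lists were chosen with earlier results of these data known, so this rank only describes them. Without aged spleen replicate 1 there were 6 higher. By edgeR 0 of the 13 were lower also at an unadjusted p under 0.05, and 0 by DESeq2. Ccr2, the receptor for monocyte chemoattractant proteins (chromosome 9, 124101950 to 124113557), was at 29.4 and 26.5 CPM in spleen and 476 and 392 CPM in muscle (3.95 ± 0.18, adjusted p = 6.38e-09). Ccr3, also on chromosome 9, was at 4.66 and 4.41 against 90.9 and 75.3 CPM (4.18 ± 0.26). Cxcr6, on the same chromosome, was at 0.981 and 1.36 CPM in spleen and 23.8 and 21.6 CPM in muscle. The fractalkine receptor gene Cx3cr1 rose from 117 and 115 CPM to 534 and 439 CPM (2.06 ± 0.18). Ccr10 had 2 counts in spleen and 89 in muscle, a ratio of 61.9 (95% exact interval 16.6 to 519, counting error only).

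Adhesion molecules went both ways, with 6 of 20 integrin and adhesion genes higher and 4 lower. Calls were lost in both directions without either aged spleen library, and lower calls also without aged muscle replicate 2. Itgb3 (2.14 ± 0.23) and Itgav (1.12 ± 0.15), which together encode the vitronectin receptor, and the integrin ligand gene Icam1 (1.64 ± 0.17) were higher. Itgal, which encodes the LFA-1 chain that binds ICAM-1, was at 435 and 441 CPM against 215 and 200 CPM (-1.08 ± 0.15).

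Costimulatory and cytokine receptors showed an unequal change. The list held 10 costimulatory genes, Icos, Cd28 and members of the TNF receptor family, of which 9 were tested. Of these 4 were higher and 1 lower, a lower call that was lost without either aged spleen library or aged muscle replicate 2. Without either aged spleen library a higher call was lost as well. Icos, the inducible costimulator, was at 619 and 609 CPM in spleen and 1670 and 1340 CPM in muscle (1.29 ± 0.15), and Tnfrsf9, which encodes 4-1BB, at 260 and 239 CPM against 723 and 590 CPM (1.39 ± 0.17). Of 13 co-inhibitory receptor genes 3 were higher, Ctla4 and Klrg1 among them, and 6 were lower. The median of -0.87 was the lowest of the pathway lists, a rank among lists chosen with earlier results known. Lag3, which binds MHC class II, was at 64.2 and 65.5 CPM against 17.1 and 5.92 CPM (-2.47 ± 0.48), and Cd160 (-3.14), Btla (-1.59) and Cd96 (-1.56) were lower as well. In the IL-1 receptor family 4 of 13 were higher (2 without aged spleen replicate 1) and 2 lower (1 by DESeq2, without any 1 aged library or without either young spleen library). Besides Il1rl1, the IL-18 receptor chain gene Il18rap was higher by 2.04 ± 0.31, and Sigirr, an inhibitory member of the family, was at 229 and 196 CPM against 109 and 85.4 CPM (-1.12 ± 0.18). Among 23 cytokine receptor and feedback genes 6 were higher and 5 lower. Without aged spleen replicate 1 these numbers were 3 and 1, without aged spleen replicate 2 they were 3 and 2, and 2 were lower without aged muscle replicate 2. Ifngr1, a chain of the interferon gamma receptor, went from 239 and 240 CPM to 764 and 627 CPM (1.54 ± 0.15), and the feedback inhibitor gene Cish was higher by 1.24.

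Genes of T cell receptor signalling were lower, 11 of 19 with 1 higher and a median of -0.48. Without aged spleen replicate 1 there were 6 lower, without aged spleen replicate 2 there were 5, and without aged muscle replicate 2 there were 6. Among the lower genes were those of proximal kinases. Lck was at 1380 and 1430 CPM in spleen and 753 and 589 CPM in muscle (-1.06 ± 0.15), Fyn at 639 and 635 CPM against 288 and 204 CPM (-1.37 ± 0.17), and Zap70 at 562 and 540 CPM against 250 and 185 CPM (-1.34 ± 0.18). The adaptor gene Skap1 (-0.92 ± 0.14) and the phosphatase gene Ptpn6 (-1.46 ± 0.23) were lower too. Cd4 was at 473 and 446 CPM against 360 and 300 CPM (-0.48 ± 0.16, adjusted p = 0.0462). That call ended with library-size scaling, with only the 4 aged libraries, without either spleen library of either age and without aged muscle replicate 2 (adjusted p up to 0.236). Cd3e had the same log2 fold change of -0.48 and did not pass (adjusted p = 0.0576). It passed with all genes that had a count, with a replicate block (adjusted p = 0.0444), and without aged muscle replicate 1 or either young muscle library. The inhibitory receptor gene Cd5, whose level in T cells follows receptor signal strength, was the 1 higher member (0.56), a call that ended without either aged spleen library (adjusted p up to 0.181). The constant gene Trbc1 of the receptor, from the T cell markers, was lower by 1.19 (log2 fold change -1.19 ± 0.18). In bulk samples, fewer cells that express a gene and less RNA of it per cell cannot be told apart.

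Immediate early genes were higher. Of 22 genes of the Nr4a, Egr and early response list 14 were higher and 1 lower (median 0.85). Fewer of them were higher without any 1 aged library. Of 12 genes of the AP-1 family, dimeric factors that stimulation induces within minutes, 7 were higher and 2 lower (median 1.09). A lower call was lost without either aged spleen library or aged muscle replicate 2, and a higher call without aged spleen replicate 1. Fosb (chromosome 7, 19302696 to 19310051) was at 124 and 104 CPM in spleen and 934 and 807 CPM in muscle (2.93 ± 0.18, adjusted p = 7.89e-08), and Fosl2 at 57.1 and 62.8 CPM against 308 and 288 CPM (2.31 ± 0.20). Junb (1.24), Fos (1.13) and Maff (2.42) were higher too. Jun went the other way, at 677 and 768 CPM in spleen and 313 and 245 CPM in muscle (-1.37 ± 0.16, adjusted p = 3.53e-05). Nr4a1, the orphan nuclear receptor Nur77 that T cell receptor signals induce, was at 203 and 180 CPM against 1200 and 1050 CPM (2.55 ± 0.16). The MAP kinase phosphatase gene Dusp5 (2.79 ± 0.18), the retention receptor gene Cd69 (1.78 ± 0.18) and Ier2 (1.52 ± 0.16) were among the others that were higher. Feedback genes of NF-kB, a factor that antigen and cytokine receptors share, were higher in 8 of 17 with 1 lower (median 0.53), and in 5 without aged spleen replicate 1 or aged muscle replicate 1. Among them were Tnfaip3, the ubiquitin editing inhibitor A20, at 126 and 133 CPM against 300 and 276 CPM (1.15 ± 0.16), Nfkbid (1.82), Bcl3 (1.03) and Nfkbia (0.89). Cd83 was the member that was lower, at 64.2 and 79.1 CPM against 14.2 and 19 CPM (-2.11 ± 0.32). Of 7 regulators of G protein signalling, which shorten chemokine signals, Rgs2 was higher, from 305 and 272 CPM to 1590 and 1380 CPM (2.36 ± 0.15), and 3 were lower, among them Rgs10 (-1.34) and Rgs3 (-1.09).

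Because AP-1 members were higher, promoters were searched for the AP-1 site TGANTCA and for the cyclic AMP response element TGACGTCA, and, for the heat shock genes, for the heat shock unit GAANNTTC. Each motif reads the same on both strands, and matches were counted for each motif alone, also where they overlap. RefSeq promoters on GRCm38.p6, of 250 bases before and 50 after the start, were matched for 999 of the 1413 higher genes, 1024 of the 1370 lower genes and 10433 of the 14772 tested. The AP-1 site was in 6.62% of the promoters of higher genes, 3.73% of those of lower genes, 5.38% of those of all genes tested and 7.81% of all 32851 promoters in the table. For the cyclic AMP element these shares were 2.97%, 2.44%, 2.76% and 1.79%, and for the heat shock unit 5.65%, 5.18%, 5.88% and 7.86%. These shares are descriptions with no test, and a match does not show binding. The 250 bases before the start are printed for 3 genes that were higher in muscle and hold such a match, with the matched letters in capitals. Gzmb is at chr14:56262335-56262584 (minus strand) with an AP-1 site starting 58 bases before the start. Tnfaip3 is at chr10:19015411-19015660 (minus strand) with one at 136 bases, and Areg at chr5:91139349-91139598 (plus strand) with a cyclic AMP element at 61 bases. These starts are RefSeq's and differ from the GENCODE starts of Gzmb (56262260) and Tnfaip3 (19015657). Tnfaip3 had 2 RefSeq promoters, of which 1 is printed. That stretch, with its AP-1 site, lies almost wholly inside the gene as GENCODE places it.
Gzmb: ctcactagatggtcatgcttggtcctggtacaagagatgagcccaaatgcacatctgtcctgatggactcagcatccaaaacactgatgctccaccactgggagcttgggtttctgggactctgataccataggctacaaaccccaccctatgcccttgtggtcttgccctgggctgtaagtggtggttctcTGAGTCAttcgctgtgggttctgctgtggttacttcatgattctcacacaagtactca
Tnfaip3: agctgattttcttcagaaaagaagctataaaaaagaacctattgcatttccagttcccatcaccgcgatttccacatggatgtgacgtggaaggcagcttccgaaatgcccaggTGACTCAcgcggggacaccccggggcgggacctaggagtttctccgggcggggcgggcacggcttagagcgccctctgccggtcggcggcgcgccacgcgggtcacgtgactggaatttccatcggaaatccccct
Areg: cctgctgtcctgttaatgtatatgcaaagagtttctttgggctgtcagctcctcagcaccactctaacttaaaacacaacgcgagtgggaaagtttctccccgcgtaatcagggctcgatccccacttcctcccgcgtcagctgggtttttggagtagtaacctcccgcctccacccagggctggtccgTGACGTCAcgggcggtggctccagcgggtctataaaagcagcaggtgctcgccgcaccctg

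Among products through which Tregs act, 3 of 13 suppressive effector genes were higher (23.1%) and 2 lower (15.4%). Over all genes tested these shares were 9.57% and 9.27%. A lower call was lost without either aged spleen library or aged muscle replicate 2. Besides Gzmb the higher genes were Fgl2 and Lgals1. Fgl2, a secreted fibrinogen-like inhibitor, went from 54.2 and 52.2 CPM to 211 and 164 CPM (1.82 ± 0.20). Lgals1, the secreted lectin galectin-1, went from 230 and 205 CPM to 915 and 646 CPM (1.84 ± 0.21). The perforin gene Prf1 was at 12.3 and 10.5 CPM against 15.3 and 9.73 CPM (0.13 ± 0.50) and Tgfb1 at 117 and 133 CPM against 185 and 141 CPM (0.38 ± 0.18), and neither passed. Of 15 repair and growth factor genes 2 were higher (13.3%), Areg and the meteorin-like cytokine gene Metrnl, from 10.5 and 3.39 CPM to 65.2 and 55.8 CPM (3.06 ± 0.45). The list also held 1 lower gene (6.67%), Tnfsf11 (-1.01), which encodes the cytokine RANKL. That call was lost without any 1 spleen library or either aged muscle library, with DESeq2 and with library-size scaling. Of 13 helper and cytotoxic effector genes Gzmb was higher (7.69%) and 2 were lower (15.4%), Cd40lg and the follicular factor gene Bcl6. Bcl6 went from 143 and 148 CPM to 34.3 and 24.5 CPM (-2.30 ± 0.22).

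Inducible heat shock genes were much lower in muscle. Of 16 heat shock genes tested 9 were lower and 0 higher (median -0.71), and 5 without either aged spleen library or aged muscle replicate 2. With library-size scaling 1 was higher, as was 1 at an unadjusted p under 0.05, and by DESeq2 0 were. Hspa1a and Hspa1b encode nearly the same HSP70 chaperone and lie near each other on chromosome 17, at 34969190 to 34972156 and 34956436 to 34959238. Hspa1a was at 558 and 625 CPM in spleen and 13.8 and 21.6 CPM in muscle (-5.07 ± 0.22, adjusted p = 6.38e-09), and Hspa1b at 451 and 492 CPM against 10.4 and 18.6 CPM (-5.03 ± 0.25), although reads of such close copies can be assigned to either. The small chaperone gene Hspb1 went from 57.4 and 46.1 CPM to 1.49 and 3.38 CPM (-4.41 ± 0.44), and the co-chaperone genes Hsph1 (-2.41 ± 0.20) and Dnajb1 (-1.28 ± 0.15) were lower. The constitutive chaperone gene Hspa8 was level at 2390 and 2640 CPM against 2720 and 2430 CPM (0.03 ± 0.15). The 250 bases before the starts of the HSP70 pair are printed because these genes showed the largest decrease of the list and share the heat shock unit, in capitals, 104 bases before the start in both. They lie at chr17:34972157-34972406 and chr17:34959239-34959488 (both minus strand) and are identical at 247 of 250 positions.
Hspa1a: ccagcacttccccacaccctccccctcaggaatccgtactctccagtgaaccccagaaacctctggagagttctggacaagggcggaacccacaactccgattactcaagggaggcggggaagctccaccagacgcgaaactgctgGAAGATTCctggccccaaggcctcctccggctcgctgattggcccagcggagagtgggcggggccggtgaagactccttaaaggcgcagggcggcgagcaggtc
Hspa1b: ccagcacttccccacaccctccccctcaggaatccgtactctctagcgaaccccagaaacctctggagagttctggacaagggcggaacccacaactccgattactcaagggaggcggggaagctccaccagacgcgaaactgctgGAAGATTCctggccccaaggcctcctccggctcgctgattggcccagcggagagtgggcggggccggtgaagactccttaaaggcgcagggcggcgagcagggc

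Of 19 genes of the p53, survival and death list 6 were higher (31.6%) and 2 lower (10.5%), against 9.57% and 9.27% over all genes tested. Calls were lost in both directions without either aged spleen library or aged muscle replicate 2. Higher calls were also lost without aged muscle replicate 1, and a lower call without either young spleen library. Bcl2, the anti-apoptotic protein of resting lymphocytes, was at 235 and 295 CPM in spleen and 52.9 and 65.5 CPM in muscle (-2.16 ± 0.19, adjusted p = 3.59e-06). Its relative Bcl2l1, which encodes BCL-xL, was at 42.9 and 51.6 CPM against 139 and 89.2 CPM (1.28 ± 0.23, adjusted p = 0.00179). Higher, besides Cdkn1a, was the stress gene Gadd45b, from 134 and 124 CPM to 796 and 619 CPM (2.45 ± 0.16). Of 16 metallothionein and oxidative stress genes 3 were higher (18.8%) and 1 was lower (6.25%). All of these calls were lost without either aged spleen library, and the lower one also without aged muscle replicate 2.

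Genes of the cytoskeleton and of S100, annexin and galectin proteins were higher in 15 of 19 with 0 lower (median 1.27), and in 10 to 14 without any 1 aged library. By edgeR and DESeq2 0 were lower, and 0 at an unadjusted p under 0.05. Vim, the intermediate filament vimentin, was at 159 and 187 CPM in spleen and 1260 and 1050 CPM in muscle (2.74 ± 0.16). The calcium-binding protein gene S100a4 went from 775 and 505 CPM to 3330 and 2540 CPM (2.20 ± 0.20), Crip1 from 499 and 331 CPM to 2800 and 2270 CPM (2.61 ± 0.21), and the actin gene Actg1 from 1050 and 1040 CPM to 3070 and 2840 CPM (1.49 ± 0.13). The summed level of the list was 7690 and 6860 CPM in spleen and 21900 and 17800 CPM in muscle, with no overlap.

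Interferon-induced genes were higher in 12 of 36 with 0 lower (median 0.56), by edgeR and by DESeq2, and 1 was lower at an unadjusted p under 0.05. Without either aged spleen library or aged muscle replicate 1 there were 6 higher. Ifit1, an antiviral RNA-binding protein, was at 19.1 and 23.7 CPM in spleen and 98.7 and 82.9 CPM in muscle (2.09 ± 0.27, adjusted p = 9.77e-05). Oas2 went from 8.09 and 4.07 CPM to 42.1 and 53.7 CPM (2.94 ± 0.41), Rsad2, which encodes viperin, from 11.3 and 5.09 CPM to 64.1 and 59.2 CPM (2.88 ± 0.43), Isg15 by 1.43 ± 0.20 and the regulator gene Irf7 by 1.03 ± 0.19.

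The cell cycle and metabolic lists are given beside shares of 9.57% higher and 9.27% lower over all genes tested. Their shares higher and lower were 4.17% and 0% for G1/S and 12.5% and 4.17% for G2/M. For glycolysis and hypoxia they were 14.3% and 3.57%, for lipid synthesis 8.33% and 4.17%, and for lipid handling 29.4% and 0%. Of 24 genes of the G1/S phases 1 was higher (0 without aged spleen replicate 1), and of 24 genes of G2/M 3 were higher and 1 lower. The kinesin gene Kif23 was at 7.11 and 8.14 CPM in spleen and 43.2 and 47.8 CPM in muscle (2.57 ± 0.33) and the centromere gene Cenpa at 81.6 and 80.4 against 181 and 168 CPM (1.11 ± 0.17). The condensin gene Smc4 was lower (-1.34 ± 0.16). Lipid handling genes were higher in 5 of 17 with 0 lower by edgeR and DESeq2 (1 at an unadjusted p under 0.05), and in 3 without either aged spleen library or aged muscle replicate 2. Dgat1, which makes triglyceride, was at 148 and 101 CPM in spleen and 1370 and 1160 CPM in muscle (3.34 ± 0.20, adjusted p = 7.89e-08), and the lipid droplet gene Hilpda at 30.4 and 18.7 against 136 and 124 CPM (2.39 ± 0.24). Of 28 glycolysis and hypoxia genes 4 were higher (1 without aged spleen replicate 1) and Pdk1 lower (-1.02, a call lost without either aged spleen library or aged muscle replicate 1), with the hypoxia-induced hydroxylase gene Egln3 at 1.78 ± 0.25, and of 24 lipid synthesis genes 2 were higher, Elovl6 at 1.84 ± 0.23 being 1 of them (1 without either aged spleen library). Among the lipid synthesis genes the desaturase gene Scd2 was lower (-1.47), a call lost with library-size scaling and without any 1 spleen library or either aged muscle library.

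Ribosomal protein genes were lower as a set, 50 of 81 with 1 higher and a median of -0.57. Without aged spleen replicate 1 there were 16 lower, without aged spleen replicate 2 there were 27, and without aged muscle replicate 2 there were 33. With library-size scaling 57 were lower. Together they took 13.4% and 12.9% of the counts in aged spleen and 10.2% and 8.81% in aged muscle. Rps27 was at 1350 and 1230 CPM against 620 and 468 CPM (-1.24 ± 0.16) and Rps16 at 2670 and 2820 CPM against 1460 and 1210 CPM (-1.04 ± 0.14). Of 76 oxidative phosphorylation genes 8 were lower, Atp5g1 (-1.28 ± 0.24) and Cox7a2l (-0.86 ± 0.16) among them, a share of 10.5% near that over all genes. Without aged spleen replicate 1 there were 2 lower, and 3 without aged spleen replicate 2 or aged muscle replicate 2.

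**Figure D3:**
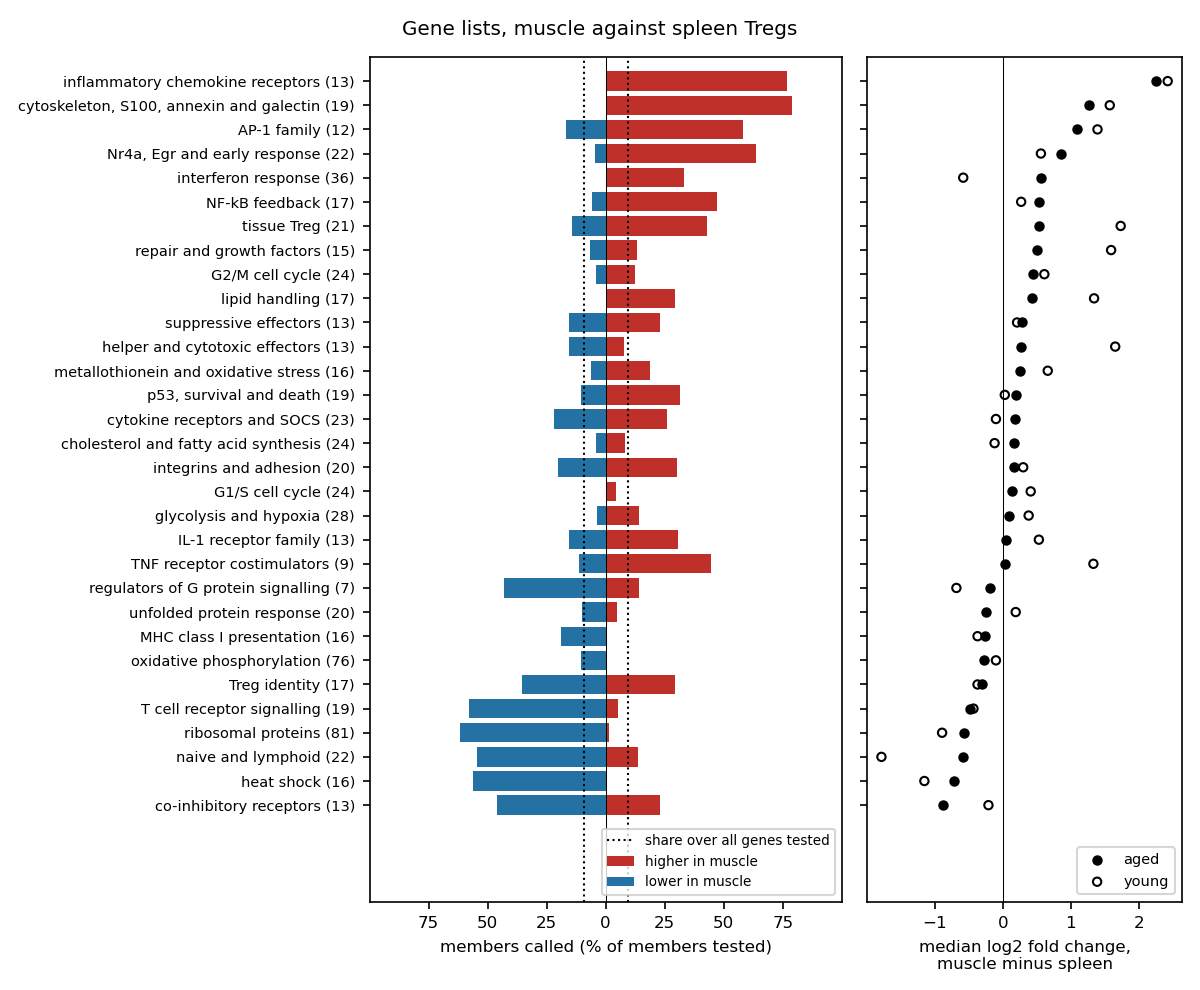
Left, share of each list's tested members (number in brackets) higher (red) or lower (blue) in aged muscle than in aged spleen, with dotted lines at the shares over all genes tested, 9.57% and 9.27%. Right, median log2 fold change of the list in aged (filled) and young (open) mice, where the interferon list is at 0.56 and -0.58.

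The same contrast in mice 2 months old gave 1681 genes higher (11.4%) and 1609 lower (10.9%). Without young spleen replicate 1 these were 660 and 784 genes, and without young spleen replicate 2 they were 776 and 849. Of the genes higher in aged muscle 734 were higher in young muscle too, which is 51.9% of the aged and 43.7% of the young list, and 738 were lower at both ages (53.9% and 45.9%). The 2 contrasts share no library but share each gene's estimate of the spread. In 42 genes the difference passed as higher in aged and lower in young mice, and in 26 the reverse. Tested directly, the aged tissue difference was above the young one for 199 genes (1.35%) and below it for 173 (1.17%), and 227 of the 2783 genes called in aged mice were among these (8.16%). Without any 1 spleen library of either age 71 to 88 genes were above and 66 to 72 below. The young muscle libraries differed in other cells' genes: replicate 1 had 1590 CPM of myeloid and 638 CPM of fibroblast genes, and replicate 2 had 398 and 51.5 CPM. Without young muscle replicate 1 the difference was above 0 for 201 genes and below 0 for 146, and without replicate 2 for 298 and 348. The part of these cells was not tested.

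Some genes separated the tissues at 1 age. Kazald1 was at 4.17 and 5.43 CPM in aged spleen and 147 and 135 CPM in aged muscle, but at 5.61 and 12 CPM in young spleen and 11.3 and 9.49 CPM in young muscle (difference of the log2 fold changes 4.66 ± 0.52, adjusted p = 0.000124). Flrt3, an adhesion and guidance receptor, was likewise high in aged muscle alone, at 94.6 and 107 CPM against 3.43 to 13.3 CPM in the other 6 libraries. The scaffold gene Strn was at 207 and 214 CPM in aged muscle and between 29.9 and 44.4 CPM elsewhere (difference 3.15). Cd40lg reversed: it was at 24.3 and 20.5 CPM in young spleen and 196 and 306 CPM in young muscle, so that its tissue difference was 3.48 in young and -4.83 in aged mice (adjusted p = 1.35e-05 for the difference). Ccdc63, Hdgfl1 and Gpm6b showed the same reversal, and Maff, Dpf1, Metap1d and Pgpep1 the opposite one, lower in young and higher in aged muscle, each past the threshold at both ages. In young mice Ccdc63 had low counts, 3 and 8 in spleen and 12 and 21 in muscle (adjusted p = 0.0395). The young calls of these genes were not followed through the alternatives. All of these age differences kept their call under the 12 alternatives that could test them.

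For some tissue Treg genes the log2 fold change was lower in aged than in young mice. Of 21 tested 15 were higher in young muscle against 9 in aged muscle, and the difference itself was below 0 for 4 and above 0 for none by edgeR or DESeq2, with 1 below without aged spleen replicate 1 or young spleen replicate 1 and 2 without aged spleen replicate 2. With all genes that had a count there were 7 below 0, and the number also rose without young muscle replicate 2. Among the 4 below 0 by edgeR, Batf and Maf turned direction. They were at 0.55 and 0.58 in young mice (adjusted p = 0.0389 and 0.0186) and at -0.75 and -0.65 in aged mice. Their aged calls and age differences did not hold under every alternative. Il10 was at 34.1 and 41.5 CPM in young spleen and 326 and 266 CPM in young muscle, against 149 and 143 CPM and 188 and 167 CPM in the aged tissues (difference -2.68, adjusted p = 3.17e-05). Itgae, from the identity list, had the same pattern as Il10, at 65.4 and 62.4 CPM in young spleen and 553 and 538 CPM in young muscle (difference -3.04, adjusted p = 3.1e-06). For both genes the aged spleen libraries lay above the young ones and the aged muscle libraries below the young ones. Among naive genes the difference was above 0 for 9 of 22 and below 0 for none by edgeR or DESeq2 (5 without aged spleen replicate 2 or young spleen replicate 1), as in Satb1 (1.87), at 482 and 471 CPM in young spleen and 155 and 154 CPM in young muscle. Of the interferon genes 1 of 36 was higher and 9 were lower in young muscle. Their difference was above 0 for 11, and for 3, 2, 6, 2 and 6 of them without aged spleen replicate 1, aged spleen replicate 2, aged muscle replicate 1, young spleen replicate 1 and young spleen replicate 2. Oas2 was at 26.2 and 20.1 CPM in young spleen and 10.5 and 9.99 CPM in young muscle (difference 4.11, adjusted p = 0.000994), and Ifit1 at 28.0 and 25.6 CPM and 22.1 and 19 CPM (difference 2.46, adjusted p = 0.00237).

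**Figure D4:**
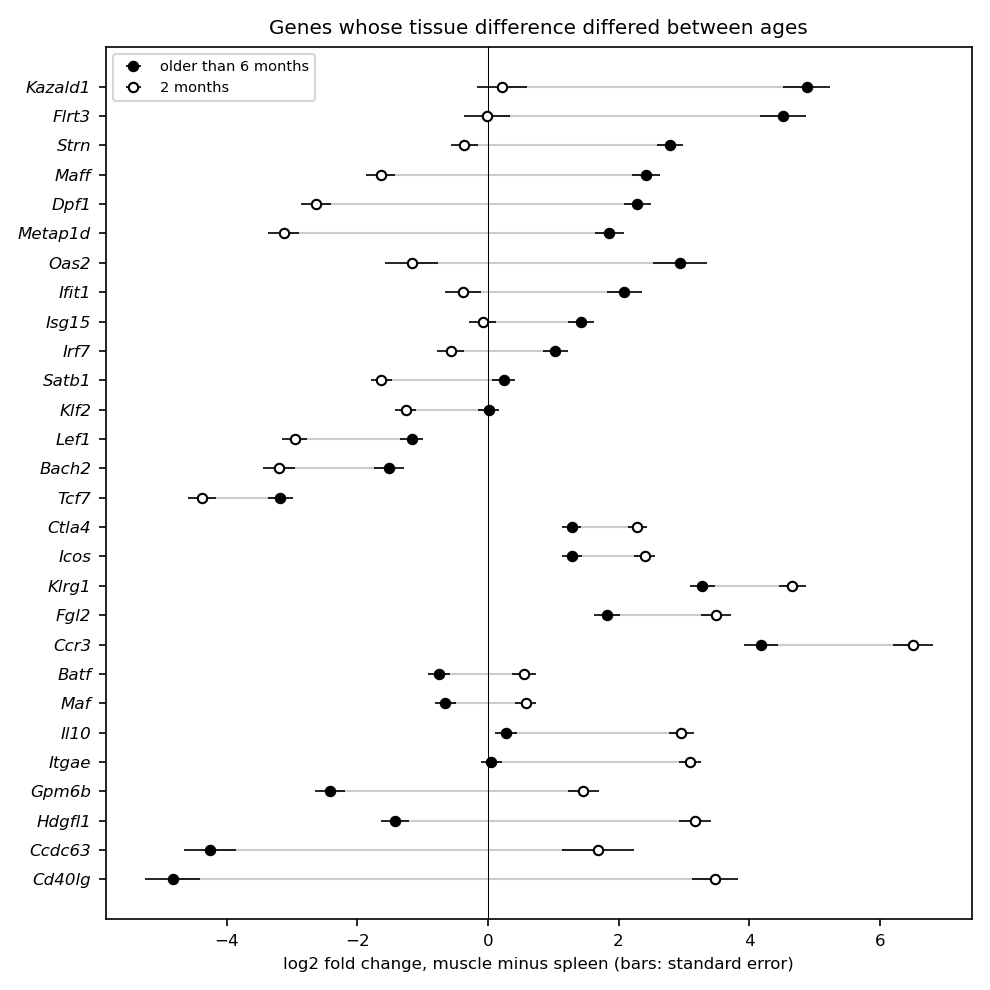
Log2 fold change of muscle minus spleen with its standard error (bars) for 28 genes whose tissue difference passed the test of a difference between ages, in mice older than 6 months (filled) and 2 months old (open). Cd40lg is at -4.83 and 3.48, Kazald1 at 4.88 and 0.22, and Itgae at 0.05 and 3.09.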

How the data were processed

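RNA of 1500 sorted Tregs per library was amplified by in vitro transcription and PCR, per the labels' protocols, steps that can favour some transcripts. The deposited values are unnormalized read counts, whole numbers for 38406 gene symbols in 8 libraries. TopHat2, TopHat, Picard, SAMtools 0.1.19, HTSeq and the mm10 build are named in the submitters' processing notes. Annotation and strand setting are not given there or in the labels, so reads of overlapping and antisense genes cannot be told apart.

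Genes were kept by filterByExpr (14772), scaled by TMM and fitted in R 4.3.3 with edgeR 4.0.16. The robust quasi-likelihood model had 1 term per group over all 8 libraries, with 4 residual degrees of freedom and a biological coefficient of variation of 0.288. Tests were two-sided, with Benjamini-Hochberg adjustment over all genes at 0.05. Adjusted p-values are edgeR's unless another tool is named, and errors are standard errors, computed from the log2 fold change and the F statistic. The labels call the libraries of a group duplicates without naming animals, so p-values reflect only how these libraries vary.

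The members, the 40 gene lists and the naming rule were chosen with earlier results of these data known. Named in each direction were the 12 largest changes without overlap and with mean log2 CPM of 4 or more, and the 6 smallest p of the age difference. Each list gave its 4 smallest p, and core Treg genes were added. Calls kept by genes chosen in this way do not stand for all calls. Predicted and clone-named genes, ribosomal pseudogenes and antigen receptor segments were left out of the largest changes. Not all of these 179 genes are described, and some further list members were named after their values were seen. Positions are from GENCODE M21 (GRCm38, the assembly of mm10, counted from 1), where 177 had 1 position. For 5 listed symbols the table's older symbol was used. Alternatives were DESeq2 1.42.0, library-size scaling, all genes with a count, only the 4 aged libraries, a fit with replicate number as a term, and each library left out. Some genes are not reported here.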

Additional observations from a re-analysis of the deposited data

Results flagged for a closer look

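For 38 named genes the tissue difference in aged mice differed from that in young mice by edgeR's test of the difference itself, given here as the aged minus the young log2 fold change. Of these 22 were above 0 and 16 below. Calls that held under all 12 alternatives were above 0 for Kazald1 (4.66), Flrt3 (4.53), Lef1 (1.79), Satb1 (1.87), Maff (4.06), Ifit1 (2.46), Oas2 (4.11), Dpf1 (4.91), Metap1d (4.99), Strn (3.15) and Pgpep1 (4.00).

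Below 0 and held under all 12 were Cd40lg (-8.31), Ccdc63 (-5.94), Itgae (-3.04), Il10 (-2.68), Hdgfl1 (-4.60) and Gpm6b (-3.88). In Cd40lg, which had the largest difference, the direction itself turned between the ages.

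The call ended under at least 1 alternative for 21 genes. Above 0 these were Plxna2 (2.95), Il2ra (0.87), Socs2 (1.43), Tcf7 (1.20), Bach2 (1.69), Klf2 (1.27), Cd96 (1.78), Crip1 (1.51), Isg15 (1.51), Irf7 (1.61) and Smc4 (1.07). Below 0 they were Ccr3 (-2.33), Hspb1 (-2.98), Ctla4 (-1.01), Klrg1 (-1.39), Batf (-1.30), Maf (-1.23), Icos (-1.11), Fosl2 (-1.19), Fgl2 (-1.67) and S100a4 (-1.16). A spleen library was the one left out in at least 1 of the lost calls of each of these genes. Explanations were not tested.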

How the results depend on the processing

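Of 125 named genes that passed, 114 kept their call under all 13 alternatives, 11 lost it under at least 1 (7 of these only without 1 library) and 0 reversed. Leaving out 1 library at a time gave 426 to 2079 genes higher and 444 to 1873 lower in aged muscle. The same gave 71 to 298 genes above and 66 to 348 below 0 for the age difference. The lowest of these counts each came from leaving out a spleen library. A change of at least 2-fold besides the adjusted p left 726 lower genes. With all 25079 genes that had a count the age difference was above 0 for 299 genes and below 0 for 371. DESeq2 called 1639 higher and 1089 lower genes, 60.1% of them higher. Library-size scaling moved the median of all genes to 0.1 and gave 1511 higher and 1244 lower genes. Replicate numbers are shared between the tissues, but no label says that same-numbered libraries share an animal, so they were not treated as pairs. Their deviations correlated with r of -0.0652 in aged and 0.108 in young mice. These values rest on a single replicate difference per tissue and cannot decide whether animals were shared. With the replicate block aged muscle had 1606 higher and 1426 lower genes, and the age difference was above 0 for 216 and below 0 for 213. Each aged library held 2148765 to 4008622 counts, and in a single library a count of 0 allowed up to 3 counts. The causes of these shifts were not tested.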
